A study of Mus musculus with 2 samples.

Results

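The genes described here were the collagen chains and the enzymes that modify collagen. They were chosen by name, with earlier results of these data known, as every gene symbol made of Col, a number, the letter a and a second number, together with Lox, Loxl1 to Loxl4, P4ha1 to P4ha3, Plod1 to Plod3, Serpinh1, Pcolce and Pcolce2. This gave 58 genes of the 32285 that were counted, of which 44 were collagen chains and 14 were enzymes and helpers. Single-cell RNA of the postischemic kidney was sequenced with the 10x Genomics 3′ kit, as 1 library of 1 mouse per genotype, so no test between genotypes was possible and every difference below is between 2 mice. The control was a Cre- mouse. The other library is labelled PHDTiEC, from a mouse with Cdh5-CreERT2 and floxed Phd1, Phd2 and Phd3, in which tamoxifen activates the Cre recombinase under the endothelial Cdh5 promoter to inactivate the 3 prolyl hydroxylase domain oxygen sensors in endothelial cells (ECs). Both mice were 8 to 10 weeks old at the start, had 25 min of unilateral ischemia-reperfusion injury (IRI) and received 4 intraperitoneal doses of tamoxifen of 3 mg, and kidneys were taken on day 14 after IRI.

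Collagens are made of 3 chains that wind into a helix, and the chains must be modified before and after they leave the cell. Prolyl 4-hydroxylases give the helix its stability, lysyl hydroxylases prepare the lysines that later form crosslinks, the chaperone HSP47 (Serpinh1) accompanies procollagen through the secretory pathway, procollagen C-endopeptidase enhancers (Pcolce, Pcolce2) assist removal of the propeptide, and lysyl oxidases crosslink the finished chains in the matrix. Several of the hydroxylases and lysyl oxidases are known targets of hypoxia-inducible factor (HIF), the transcription factor that the oxygen sensors mark for degradation. In the kidney, type IV collagen builds basement membranes, whereas types I and III make up the fibrils of interstitial scar.

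The libraries held 136004367 unique molecular identifier (UMI) counts in Cre- and 146758812 in PHDTiEC, and 8548 and 9309 cells were kept, with a median of 7500 and 7898 UMIs per cell. Between the libraries, 28 kept barcodes were shared. Of the 30 clusters, 11 matched no cell type list well enough to be named and are given by number, and the named ones are called "-like". The floxed genes did not mark the PHDTiEC label: in endothelial-like cells Egln1 (Phd2) stood at 67.3 and 204 CPM (counts scaled to a total of 1000000) in Cre- and PHDTiEC, Egln3 (Phd3) at 25.8 and 162, and Egln2 (Phd1) at 44.3 and 39.0. A count per gene is blind to the loss of single exons, so these levels check nothing about recombination, and PHDTiEC below means the library labelled so.

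For each class of cells, UMIs were summed per gene and divided by the UMIs of that class to give CPM. Each log2 ratio is PHDTiEC over Cre-, with a 95% interval from the split of the counts. These intervals cover counting error only and say nothing about the spread between mice. A gene was counted as higher or lower when its CPM differed by at least 1.5-fold and both libraries together held at least 30 UMIs in the class. Over all kept cells, 51 of the 58 genes reached 30 UMIs. The other 7 were chains, namely Col2a1, Col6a5, Col6a6, Col9a1, Col9a2, Col22a1 and Col28a1, and Col9a1 had no UMI in either library.

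Of the 51 genes, 29 in Cre- and 25 in PHDTiEC had their highest level in fibroblast-like cells. Of the same 51, 39 had the same leading class in both libraries over the 23 classes with enough cells. The fibrillar chains Col1a1, Col1a2 and Col3a1, which form the bulk of scar collagen, stood at 4749, 5143 and 4318 CPM in fibroblast-like cells of Cre- and at 4328, 5300 and 3554 CPM in those of PHDTiEC. The next class for Col1a1 and Col1a2 in both libraries was cluster 17, an unnamed cluster led by Map1b, Cdh6 and Tnc, at 83.7 and 145 CPM for Col1a1. Cluster 17 also led for Col4a1, at 2083 and 2393 CPM, and for Plod2, the lysyl hydroxylase of the telopeptides, at 312 and 313 CPM.

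**Figure D1:**
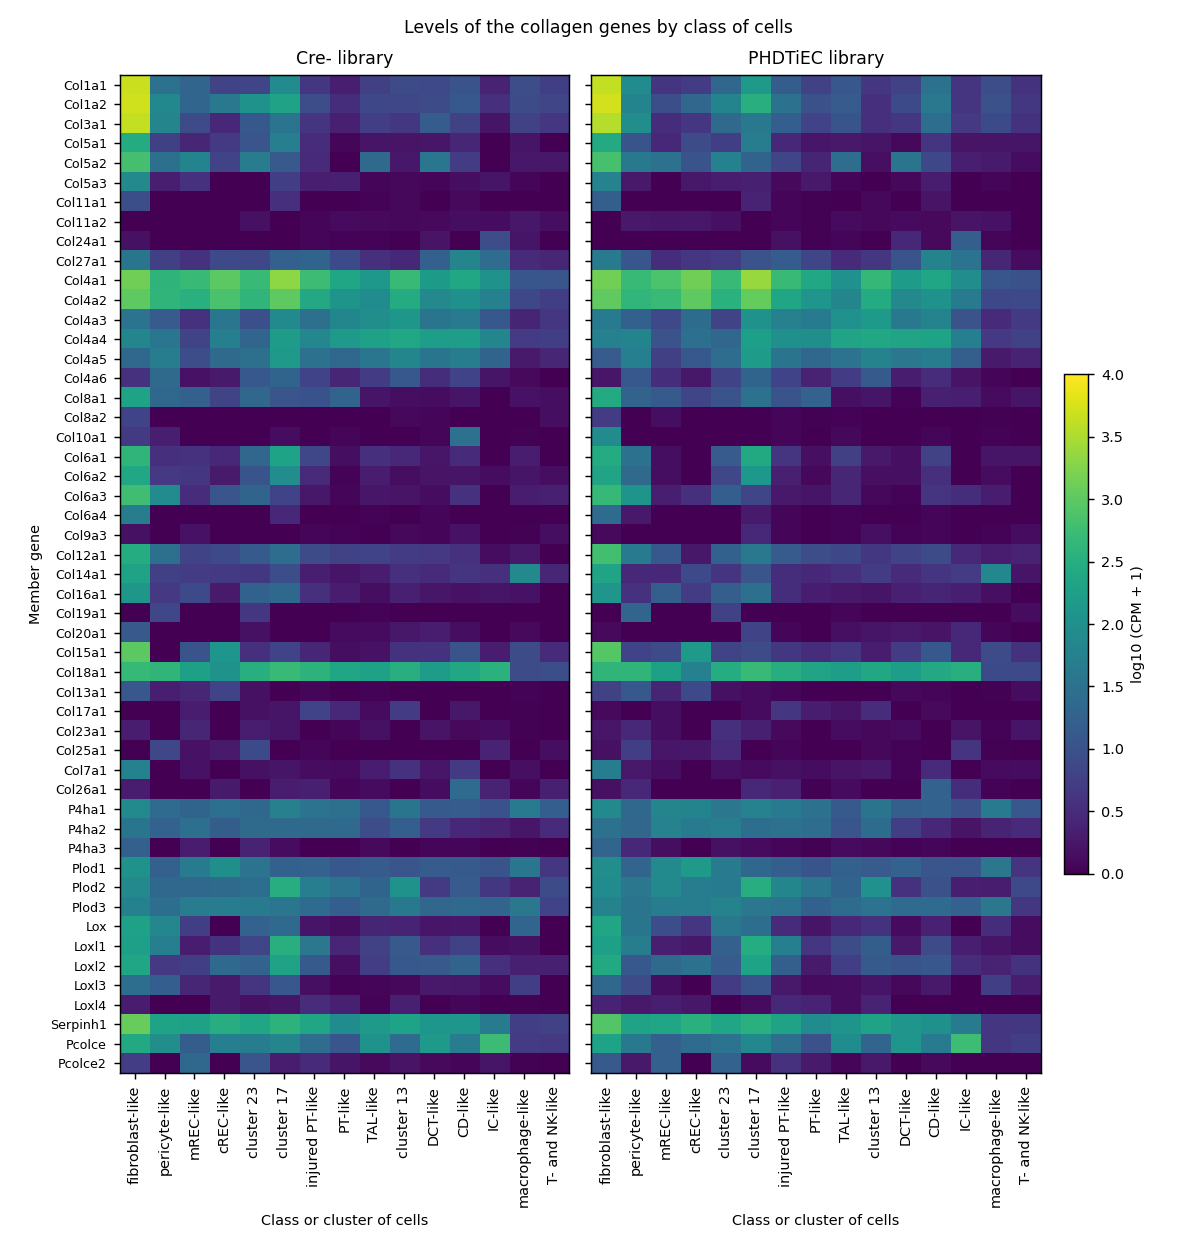
Level of each collagen gene with at least 30 UMIs (rows) in 15 classes or clusters (columns), as log10 of CPM plus 1, for the Cre- library (left) and the PHDTiEC library (right). Col1a1, Col1a2 and Col3a1 are brightest in fibroblast-like cells of both libraries, and Col4a1 reaches its highest level in cluster 17 (2083 and 2393 CPM).

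Some members had their highest level outside the fibroblast-like cells. Pcolce was highest in cells like intercalated cells (IC-like), at 558 and 562 CPM. The basement membrane chains Col4a3 and Col4a4 were highest in cluster 13, an epithelial cluster with Slc14a2 and Fst, at 129 and 145 CPM for Col4a3 and 251 and 238 CPM for Col4a4. Col14a1, a chain that binds the surface of fibrils, was highest in fibroblast-like cells (198 and 214 CPM) and next in macrophage-like cells (74.4 and 69.0 CPM). Col27a1, a minor fibrillar chain, was highest in IC-like cells with collecting duct markers, at 82.5 and 77 CPM. The levels of these 5 genes differed by less than 1.5-fold between the libraries. Less counted chains with their highest CPM outside the fibroblast-like cells were Col17a1, the chain of epithelial hemidesmosomes, in injured PT-like cells (5.29 and 3.23 CPM) and next in cluster 13 (4.09 and 2.19 CPM), Col24a1 in IC-like cells (7.93 and 15.5 CPM) and next in IC-like cells with collecting duct markers (6.03 and 8.74 CPM), and Col19a1 in pericyte-like cells (6 and 19 CPM) and next in cluster 23 (3.44 and 5.04 CPM).

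Of the 6 collagen hydroxylases, P4ha1, P4ha2, Plod1 and Plod2 were higher in endothelial-like cells of PHDTiEC, while Plod3 was near equal and P4ha3 was barely counted. Endothelial-like cells comprised an mREC-like cluster (arterial and medullary markers such as Sox17 and Jam2) with 186 and 230 cells and a cREC-like cluster (capillary markers such as Plvap) with 126 and 210 cells. Among the 23 members with at least 30 UMIs there, 7 were higher and 5 were lower in PHDTiEC. Over all 10739 genes counted the same way, 5.48% were higher and 7.56% were lower. The members that were higher were P4ha1, P4ha2, Plod1, Plod2, Lox, Loxl2 and Col16a1, so that 6 of these 7 were enzymes. The median log2 ratio of the 23 members was -0.02, beside -0.01 over all genes.

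P4ha1, the catalytic subunit of the most widely expressed collagen prolyl 4-hydroxylase, lies at chr10:59323296-59373304 (GRCm38, plus strand). In mREC-like cells it stood at 18.3 CPM in Cre- and 64.7 CPM in PHDTiEC, a log2 ratio of 1.82 (1.27 to 2.40). In cREC-like cells the levels were 28.2 and 62.7 CPM (log2 ratio 1.15, 0.53 to 1.81). The gene was therefore higher in PHDTiEC in both endothelial clusters, by 3.53-fold and 2.22-fold. P4ha2, which encodes the alternative catalytic subunit (chr11:54100095-54131665, plus strand), stood at 28.3 and 58.8 CPM in mREC-like cells, and the log2 ratio was 1.06 (0.59 to 1.54). Its levels in cREC-like cells were 14.1 and 44.6 CPM, with a log2 ratio of 1.66 (0.81 to 2.59). P4ha1 had the larger ratio in mREC-like cells and P4ha2 in cREC-like cells, and the intervals of the genes overlapped in both clusters. P4ha3, the third catalytic subunit, had 2 and 1 UMIs in all endothelial-like cells. The summed prolyl 4-hydroxylases went from 45.7 to 119 CPM (log2 ratio 1.38, 1.09 to 1.67).

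Among the lysyl hydroxylases, Plod2 and Plod1 were higher and Plod3 was not. Plod2 (chr9:92542223-92608428, plus strand) stood at 20.5 and 76.7 CPM in mREC-like cells, a log2 ratio of 1.90 (1.39 to 2.45). In cREC-like cells it stood at 23.5 and 47.9 CPM (log2 ratio 1.03, 0.33 to 1.76). The Plod2 ratio in mREC-like cells overlapped that of P4ha1 within their intervals. Plod1, which hydroxylates lysines of the helix (chr4:147909753-147936767, minus strand), stood at 45.0 and 81.3 CPM in mREC-like cells with a log2 ratio of 0.85 (0.48 to 1.24). In cREC-like cells Plod1 stood at 97.7 and 139 CPM, and the log2 ratio of 0.51 (0.15 to 0.88) was under 1.5-fold. Over both clusters Plod1 had a log2 ratio of 0.63, which was 0.26 as a mean over cells and 0.58 without the cells with the highest doublet scores, both under 1.5-fold. Plod3, which also adds sugars to hydroxylysine (chr5:136987019-136996648, plus strand), stood at 49.4 and 48.8 CPM in mREC-like cells and at 47.9 and 47.0 CPM in cREC-like cells. The log2 ratio of Plod3 over both clusters was -0.02 (-0.34 to 0.31), an interval that stays within 1.5-fold in either direction.

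Sequence before the start sites of the hydroxylase genes was examined for the core letters of the HIF binding motif, to set genes that were higher in endothelial-like cells (P4ha1, P4ha2 and Plod1) beside Plod3, which was not. The 250 bases before the RefSeq start site are printed 5′ to 3′ on the strand of the gene (GRCm38.p6) for the hydroxylases whose window was in the table used. Capitals mark ACGTG or GCGTG, or the same letters on the other strand, CACGT or CACGC, where ACGTG and CACGT can overlap in CACGTG. The windows lie at chr10:59323046-59323295 for P4ha1, chr11:54100674-54100923 for P4ha2, chr4:147936777-147937026 for Plod1 and chr5:136986769-136987018 for Plod3. The P4ha2 window lies within the span given above for that gene, since the RefSeq start used here is downstream of the first base of the GENCODE gene.
P4ha1: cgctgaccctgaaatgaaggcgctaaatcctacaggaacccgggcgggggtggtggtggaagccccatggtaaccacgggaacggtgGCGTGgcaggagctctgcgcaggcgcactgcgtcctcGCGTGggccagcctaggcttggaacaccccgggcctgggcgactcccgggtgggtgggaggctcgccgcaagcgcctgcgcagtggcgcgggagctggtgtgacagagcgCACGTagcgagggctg
P4ha2: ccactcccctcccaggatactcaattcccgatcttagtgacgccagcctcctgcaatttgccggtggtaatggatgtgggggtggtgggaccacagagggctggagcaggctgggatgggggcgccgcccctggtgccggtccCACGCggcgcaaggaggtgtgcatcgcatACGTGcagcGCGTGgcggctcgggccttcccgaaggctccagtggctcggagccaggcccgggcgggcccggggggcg
Plod1: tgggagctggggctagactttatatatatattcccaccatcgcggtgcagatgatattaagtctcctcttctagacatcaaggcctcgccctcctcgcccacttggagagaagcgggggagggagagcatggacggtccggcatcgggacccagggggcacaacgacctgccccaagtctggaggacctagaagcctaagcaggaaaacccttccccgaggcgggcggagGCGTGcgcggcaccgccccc
Plod3: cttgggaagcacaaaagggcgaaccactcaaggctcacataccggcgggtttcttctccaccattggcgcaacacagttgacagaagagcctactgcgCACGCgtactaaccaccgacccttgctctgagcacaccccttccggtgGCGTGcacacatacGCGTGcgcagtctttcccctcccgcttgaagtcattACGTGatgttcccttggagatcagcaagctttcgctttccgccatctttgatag

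P4ha1 and P4ha2 each held 3 matches, Plod1 held 1 and Plod3 held 4. Of 32851 windows of this length, 38.6% held at least 1 match and 6.58% held 3 or more. Of the 44 members with a window in the table, 18 held a match, which is 40.9%. Among the hydroxylases printed here the number of matches did not follow the ratios, since Plod3, with 4 matches, had near equal levels in the libraries and Plod1, with 1, was higher. The Col4a1 and Col4a2 windows held 1 match each. A relation between matches and ratios over the 44 members was not tested. A match describes letters in a window and is no evidence of binding. Plod2 and Loxl2 had no window in the table.

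Lysyl oxidases were detected at lower levels in endothelial-like cells. Loxl2, a lysyl oxidase that acts on basement membrane collagen (chr14:69609068-69695834, plus strand), stood at 4.44 CPM in mREC-like cells of Cre- and 23.2 CPM in those of PHDTiEC, from 8 and 60 UMIs. The log2 ratio was 2.39 (1.32 to 3.66). In cREC-like cells Loxl2 stood at 22.6 and 31.4 CPM with a log2 ratio of 0.48 (-0.30 to 1.28), so the higher level was seen in the mREC-like cluster and was not resolved in the cREC-like cluster at this depth. Lox, the founding lysyl oxidase, had 8 and 25 UMIs over both clusters, or 2.79 and 6.59 CPM, with a log2 ratio of 1.24 (0.05 to 2.60). Loxl1, needed for elastic fibers, had 5 and 4 UMIs, Loxl3 had 4 and 1, and Loxl4 had 1 and 4, which is too few for a ratio.

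The helpers of secretion and processing differed less or in the other direction. Serpinh1 stood at 237 and 268 CPM in endothelial-like cells, a log2 ratio of 0.18 (0.04 to 0.32). Pcolce stood at 28.3 and 18.4 CPM (log2 ratio -0.62, -1.10 to -0.14), and the lower level came from cREC-like cells, where it was 52.6 and 23.9 CPM, while in mREC-like cells it was 13.9 and 15.9 CPM. Pcolce2 stood at 13.3 and 10.8 CPM, and its interval of -0.97 to 0.38 included no difference. Thus Serpinh1 and the Pcolce genes did not share the ratios of P4ha1, P4ha2 and Plod2.

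**Figure D2:**
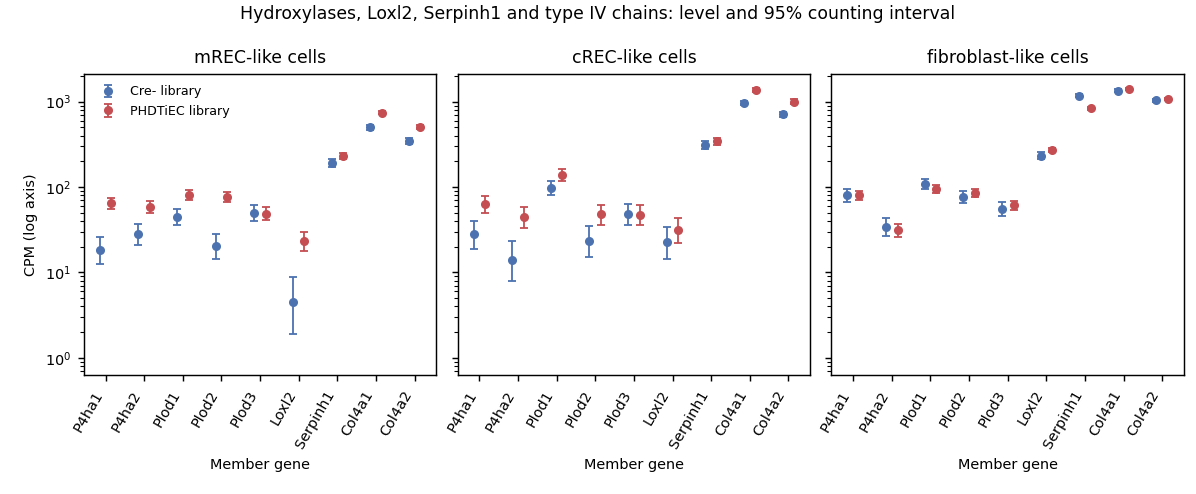
Level (CPM, log axis) of the hydroxylases, Loxl2, Serpinh1, Col4a1 and Col4a2 in mREC-like, cREC-like and fibroblast-like cells. Points are the Cre- library (blue) and the PHDTiEC library (red) with 95% Poisson counting intervals. P4ha1, P4ha2 and Plod2 lie higher in PHDTiEC in both endothelial clusters, while Plod3 coincides, and in fibroblast-like cells P4ha1 stands at 79.8 and 79.7 CPM.

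The type IV chains Col4a1 and Col4a2 were more abundant in endothelial-like cells of PHDTiEC by less than 1.5-fold, whereas Col4a5 was lower, and Col4a4 was lower in cREC-like cells (log2 ratio -0.88, on 55 and 34 UMIs). Col4a1 and Col4a2, which lie head to head at chr8:11198423-11312826 and chr8:11312805-11449287 and encode the ubiquitous type IV chains, were the most counted collagens of these cells. Col4a1 stood at 498 and 746 CPM in mREC-like cells and at 968 and 1363 CPM in cREC-like cells, with log2 ratios of 0.58 (0.47 to 0.70) and 0.49 (0.38 to 0.61). Col4a2 stood at 350 and 499 CPM in mREC-like cells and at 709 and 1005 CPM in cREC-like cells, with log2 ratios of 0.51 (0.37 to 0.65) and 0.50 (0.37 to 0.64). Both chains therefore differed in the same direction and by similar amounts in each cluster. Without the top cell of each library, the Col4a1 log2 ratio in mREC-like cells was 0.60 (0.48 to 0.72), just past 1.5-fold. That of Col4a2 was 0.56 (0.42 to 0.70), under it. The multiplexin Col18a1, the source of endostatin, stood at 188 CPM in mREC-like cells of both libraries, and in cREC-like cells at 107 and 56.1 CPM with a log2 ratio of -0.93 (-1.39 to -0.49). As a mean over cREC-like cells Col18a1 stood at 0.715 and 0.479 UMIs per 10000, just under 1.5-fold. Col15a1, the other multiplexin, stood at 126 and 143 CPM in cREC-like cells.

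The summed fibrillar chains were lower in mREC-like cells of PHDTiEC, at 116 and 50.3 CPM (log2 ratio -1.2, -1.53 to -0.88). In cREC-like cells they stood at 63 and 49.5 CPM, and the interval of -0.87 to 0.18 included no difference. Over both clusters the sum stood at 96.3 and 50.1 CPM (log2 ratio -0.94, -1.22 to -0.67). Col5a2, a chain that limits the width of type I fibrils, had the most UMIs of these chains, at 41.9 and 24.5 CPM with a log2 ratio of -0.77 (-1.18 to -0.37). Col1a2 stood at 26.5 and 11.9 CPM with a log2 ratio of -1.16 (-1.73 to -0.61). A UMI of Col5a2 was found in 49 and 49 endothelial-like cells and one of Col1a2 in 28 and 25. In mREC-like cells 1 Cre- cell held 66 of the 209 fibrillar UMIs and 1 PHDTiEC cell held 16 of 130, and without these cells the summed log2 ratio was -0.83 (-1.20 to -0.46) instead of -1.2. Col1a1 had 41 and 13 UMIs, and 1 cell held 78.0% of its UMIs in Cre-. Without the top cell of each library, 9 and 11 UMIs were left and the log2 ratio moved from -2.06 to -0.11. Col4a5 was also lower, at 13.6 and 6.85 CPM, and Col16a1, a fibril-associated chain, was higher, at 4.54 and 11.9 CPM.

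With cluster 23, described below, joined to the endothelial-like cells, the log2 ratio of Col5a2 was -0.35, under 1.5-fold. In mREC-like cells alone, 8 of the 20 members with enough counts were higher and 3 were lower in PHDTiEC, where all genes gave 7.42% and 5.6%. The members' median log2 ratio there was 0.39, beside 0.02 over all genes. The 8 were P4ha1, P4ha2, Plod1, Plod2, Loxl2, Col4a4, Col12a1 and Col16a1. Without the cell with the most UMIs of the gene in each library, Col4a4 fell from 0.80 to 0.19 (-1.19 to 1.67, on 8 and 13 UMIs), under 1.5-fold, and the other 7 stayed at 0.87 or above. The Col12a1 interval then included no difference (1.08, -0.05 to 2.35, on 9 and 27 UMIs). As a mean over cells, Col12a1 stood at 0.107 and 0.114 UMIs per 10000 and Plod1 at 0.521 and 0.761, both under 1.5-fold. Of the 3 lower members (Col1a1, Col1a2 and Col5a2), Col1a1 changed from -2.65 to 0.49 (-1.74 to 3.11, on 3 and 6 UMIs). In cREC-like cells, 3 of 16 were higher (P4ha1, P4ha2 and Plod2) and 5 were lower (Col1a2, Col4a4, Col4a5, Col18a1 and Pcolce), where all genes gave 9.36% and 10.1%. The median there was 0.16, beside 0.01. Thus P4ha1, P4ha2 and Plod2 were higher in each cluster, whereas the difference between the clusters was not tested.

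Markers of other cells differed between the libraries within the endothelial-like cells. The 6 injured proximal tubule markers summed to 3710 and 1065 CPM (2 of 5 with enough counts were lower), and the 6 thick ascending limb markers to 680 and 103 CPM (5 of 5 were lower). The 6 neutrophil markers summed to 200 and 70.9 CPM, and the 10 endothelial markers to 6364 and 7840 CPM. The 9 fibroblast markers summed to 347 and 286 CPM, with Lum, Dpt, Clec3b and Mfap4 at 0 and 1 of the 9 at 30 UMIs or more. Some lists differed by cluster: the 8 macrophage markers summed to 730 and 1272 CPM in cREC-like cells (5 of 8 were higher) and to 502 and 352 CPM in mREC-like cells (4 of 8 were lower), and the 6 capillary markers summed to 1343 and 2054 CPM in mREC-like cells (1 of 5 with enough counts was higher). The fibroblast markers summed to 453 and 304 CPM in mREC-like cells (1 of 1 was lower), where the fibrillar sum was lower, and to 167 and 248 CPM in cREC-like cells (1 of 1 was higher). In cREC-like cells alone the injured proximal tubule markers summed to 7888 and 1846 CPM (2 of 3 with enough counts were lower). The thick ascending limb markers summed there to 1474 and 258 CPM (5 of 5 were lower). The 6 distal convoluted tubule markers summed to 212 and 68.5 CPM (3 of 4 were lower). In mREC-like cells these lists summed, in this order, to 1243 and 698, 211 and 30.2, and 64.4 and 68.1 CPM. The part of these marker differences in the collagen ratios was not tested. After subtraction of the profile of barcodes under 100 UMIs, the log2 ratios in endothelial-like cells were 1.58 for P4ha1, 1.23 for P4ha2 and 1.68 for Plod2. The median mitochondrial share of a cell was lower in PHDTiEC in every class. It was 4.16% and 2.64% in mREC-like, 4.01% and 2.72% in cREC-like, 3.76% and 2.38% in fibroblast-like and 9.68% and 7.01% in pericyte-like cells. The part of this difference in the ratios was not tested.

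The share of cells with a UMI was compared at equal depth. Each cell was thinned to 2000 UMIs, which left out 21 and 11 mREC-like cells and 30 and 55 cREC-like cells. In mREC-like cells, P4ha1 was then seen in 2.42% of 165 cells (95% exact binomial interval 0.66 to 6.09) in Cre- and in 10.5% of 219 cells (6.77 to 15.3) in PHDTiEC. Before thinning the shares were 14.5% and 40.4%, at median depths of 7097.5 and 8951 UMIs. Plod2 was seen in 5.45% (2.52 to 10.1) and 11% (7.15 to 15.9) of the thinned mREC-like cells, and Plod1 in 9.70% (5.64 to 15.3) and 17.8% (13 to 23.5). The intervals overlapped for Plod1 and Plod2 and did not for P4ha1. Plod3 was seen in 12.1% and 11.9%, so its equal level came with an equal share of cells.

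The intervals of these shares were wide in the smaller cREC-like cluster. There P4ha2 was seen in 3.13% (0.65 to 8.86) and 10.3% (6.02 to 16.2) of thinned cells, and P4ha1 in 4.17% (1.15 to 10.3) and 7.74% (4.06 to 13.1). Plod1 was seen in 22.9% (15 to 32.6) and 27.1% (20.3 to 34.8) of thinned cREC-like cells, and in 49.2% and 41.9% before thinning, at median depths of 3967 and 3413.5 UMIs. T- and NK-like cells, which make little collagen, were set beside them, with median depths of 3153 and 3289.5 UMIs. Their P4ha1 and P4ha2 UMIs may be their own, so their shares are no background level for these enzymes. In these, P4ha1 was seen in 2.49% and 2.18% and P4ha2 in 0.38% and 0.47% of thinned cells. The P4ha1 share of Cre- mREC-like cells was thus near that of T- and NK-like cells, and the P4ha1 share of PHDTiEC mREC-like cells was above that of T- and NK-like cells.

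**Figure D3:**
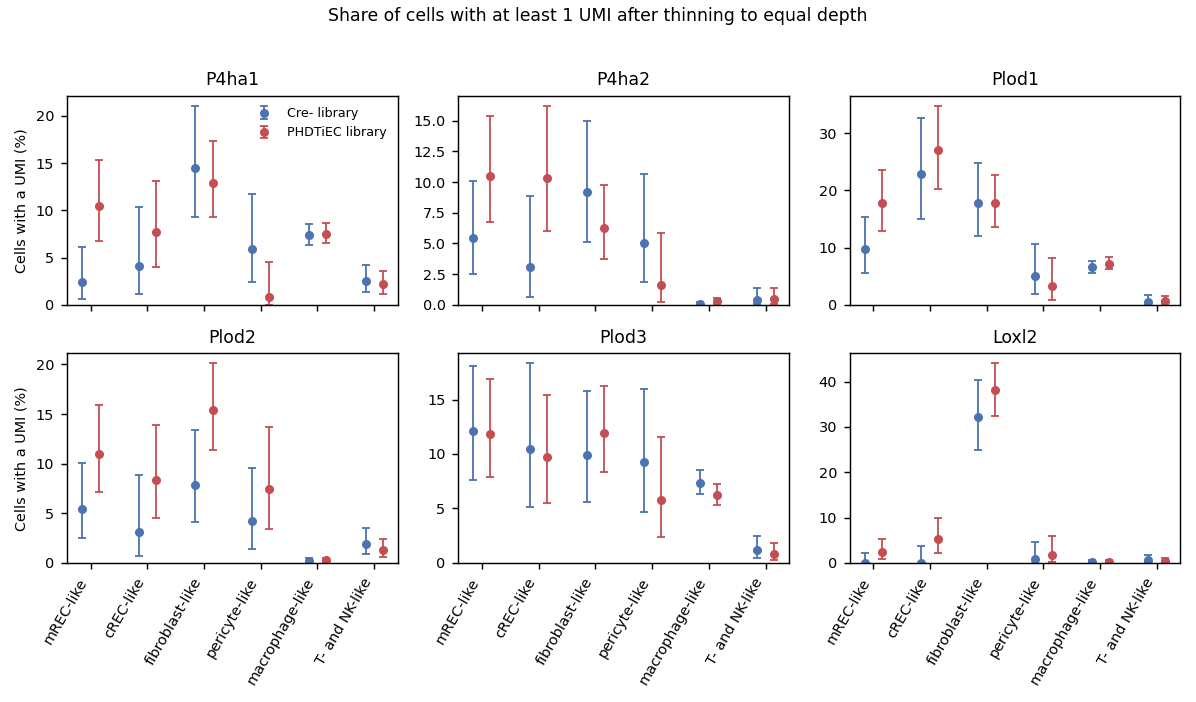
Share of cells (percent) with at least 1 UMI of P4ha1, P4ha2, Plod1, Plod2, Plod3 or Loxl2 after thinning each cell to 2000 UMIs, in 6 classes, for the Cre- library (blue) and the PHDTiEC library (red) with 95% exact binomial intervals. In mREC-like cells P4ha1 goes from 2.42% to 10.5% while Plod3 stays at 12.1% and 11.9%, and macrophage-like cells show 7.35% and 7.55% for P4ha1.

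Cluster 23, with 87 and 97 cells, carried endothelial and pericyte markers together and was kept apart. Of its 28 members with enough counts, 8 were higher (Col1a1, Col3a1, P4ha1, P4ha2, Plod2, Lox, Loxl1 and Pcolce2) and 6 were lower (Col1a2, Col5a1, Col4a6, Col8a1, Col6a1 and Col6a2), where all genes gave 6.39% and 7.08%. Of the hydroxylases, P4ha1 stood at 21.2 and 37.3 CPM (log2 ratio 0.82, 0.26 to 1.40), P4ha2 at 23.1 and 50.9 CPM (1.14, 0.63 to 1.67) and Plod2 at 27.1 and 44.4 CPM (0.71, 0.21 to 1.23). Lox, at 17.2 and 38.8 CPM (1.17, 0.58 to 1.79), was higher as well, while Loxl2, at 17.2 and 13.1 CPM, was not, and Plod1 stood at 32.5 and 41.9 CPM (0.37, -0.12 to 0.86). Col1a1 and Col3a1 fell to 0.63 and 0.30 without the top cell of each library, with intervals that included 0. Col4a1 stood at 505 and 488 CPM, so the higher type IV level of the endothelial-like clusters was not seen in cluster 23. In it the 6 thick ascending limb markers summed to 83.6 and 397 CPM (3 of 3 were higher), the 8 T cell markers to 2.46 and 56.5 CPM, the 8 macrophage markers to 330 and 213 CPM (3 of 7 were lower) and the 8 pericyte markers to 7411 and 9709 CPM, and their part in these ratios was not tested.

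In fibroblast-like cells the summed fibrillar chains and the hydroxylases P4ha1, P4ha2 and Plod2 were within 1.5-fold between the libraries. Of the 39 members with at least 30 UMIs, 4 were higher and 3 were lower in PHDTiEC, where all genes gave 11.2% and 4.36%. The members' median log2 ratio was -0.06, beside 0.07 over all genes. The summed fibrillar chains stood at 15277 and 14269 CPM (log2 ratio -0.10, -0.12 to -0.08). P4ha1 had 79.8 and 79.7 CPM with an interval of -0.29 to 0.29, P4ha2 had 34.3 and 31.0 CPM (-0.59 to 0.31), and Plod2 had 76.6 and 85.3 CPM (-0.13 to 0.45). None of these 3 intervals reached the endothelial ratio of the same gene over both clusters, which was 1.54, 1.24 and 1.64.

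**Figure D4:**
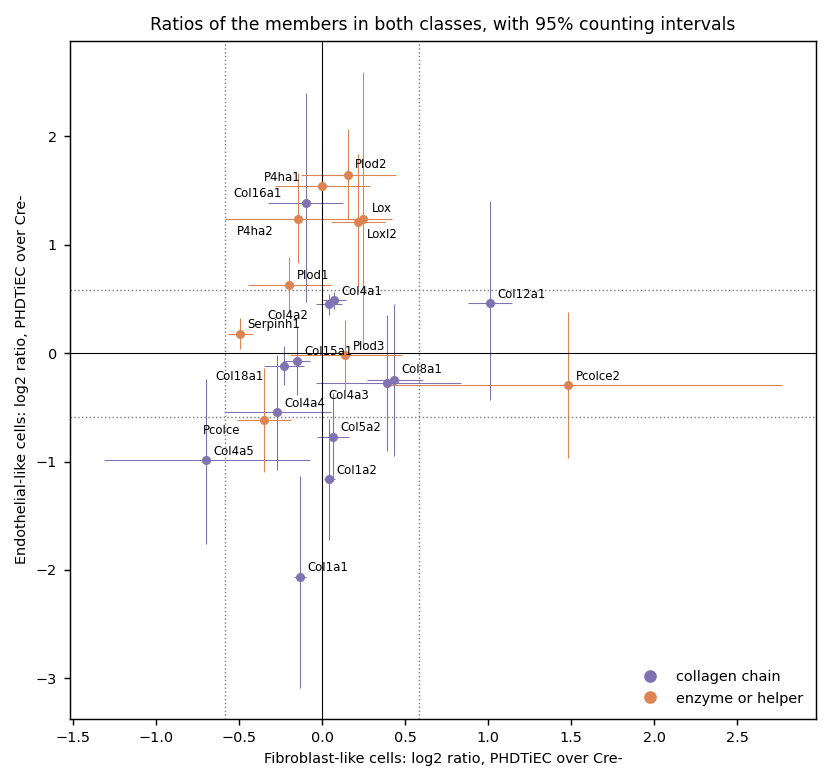
Log2 ratio, PHDTiEC over Cre-, of the 23 members with at least 30 UMIs in both classes, in fibroblast-like cells (horizontal) and endothelial-like cells (vertical), with 95% counting intervals and dotted lines at 1.5-fold. P4ha1, P4ha2 and Plod2 lie near 0 on the horizontal axis and above 1.2 on the vertical axis, whereas Col12a1 lies at 1.01 on the horizontal axis.

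Col12a1 was higher in many fibroblast-like cells of PHDTiEC. The gene encodes a fibril-associated collagen (chr9:79598991-79718831, minus strand) and stood at 303 CPM in Cre- and 609 CPM in PHDTiEC, a log2 ratio of 1.01 (0.88 to 1.14). A UMI of Col12a1 was found in 103 of 160 and in 251 of 302 fibroblast-like cells, and the median cell held 1.36 and 4.45 UMIs per 10000. After thinning to 2000 UMIs, the share of cells was 36.2% (28.6 to 44.4) and 53.5% (47.5 to 59.4), beside 0 of 523 and 2 of 642 T- and NK-like cells. The higher level was therefore spread over many cells, and the top cell held 4.25% of its UMIs in Cre- and 3.37% in PHDTiEC.

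Other differences in fibroblast-like cells rested on fewer cells or were smaller. Col10a1, the short-chain collagen of growth plate cartilage, had 7 and 344 UMIs, but the 344 came from 4 cells, of which the top cell held 52.3%. When the members were left among the genes used for clustering, its log2 ratio turned from 4.49 to -0.57. Pcolce2 (8 and 49 UMIs) and Col11a1, a minor fibrillar chain (15 and 63 UMIs), were higher. Col6a4, a beaded filament chain, was lower at 46.6 and 24.4 CPM with a log2 ratio of -0.93 (-1.36 to -0.50). Col4a5 (40 and 54 UMIs, 21.4 and 13.2 CPM) and the membrane collagen Col13a1 (21 and 21 UMIs, 11.2 and 5.13 CPM) were also lower.

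Several further members were lower by less than 1.5-fold with intervals that excluded no difference. Serpinh1 stood at 1176 and 837 CPM (log2 ratio -0.49, -0.57 to -0.41). The median fibroblast-like cell held 11.5 and 7.81 Serpinh1 UMIs per 10000. Col6a1 stood at 417 and 287 CPM (-0.54, -0.67 to -0.41), Col6a3 at 600 and 479 CPM (-0.33, -0.43 to -0.22) and Col3a1 at 4318 and 3554 CPM (-0.28, -0.32 to -0.24). The basement membrane chains were close, with Col4a1 at 1347 and 1417 CPM and Col4a2 at 1036 and 1066 CPM, and so were Col5a2 at 662 and 693 CPM and Col15a1 at 989 and 890 CPM. The procollagen enhancer Pcolce stood at 265 and 208 CPM (-0.35, -0.51 to -0.19). The lysyl oxidases Lox (197 and 233 CPM) and Loxl2 (233 and 270 CPM) were slightly higher and Loxl1 (182 and 177 CPM) was near equal. Col8a1 was higher by less than 1.5-fold, at 207 and 280 CPM (0.44, 0.27 to 0.61). The top cell held 21.7% of the Col8a1 UMIs in Cre- and 5.93% in PHDTiEC. Without the top cell of each library the Col8a1 log2 ratio was 0.67, past 1.5-fold.

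In fibroblast-like cells the 6 neutrophil markers summed to 40.2 and 205 CPM and the 6 collecting duct markers to 23 and 90.9 CPM (2 of 2 and 3 of 3 with enough counts were higher), while the 9 fibroblast markers summed to 1859 and 1945 CPM, although 3 of 8 with enough counts were lower and 0 were higher. The 10 endothelial markers summed to 308 and 378 CPM (4 of 7 were higher), the 6 capillary markers to 184 and 259 CPM (3 of 4 were higher) and the 6 monocyte markers to 324 and 305 CPM (4 of 5 were higher). The part of these differences in the fibroblast results was not tested.

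Pericyte-like cells (145 and 148 cells) held mainly basement membrane chains. Of the 23 members with enough counts, 4 were higher (Col1a1, Col4a4, Col6a1 and Plod2) and 3 were lower (Col4a6, Lox and Pcolce), where all genes gave 16.8% and 5.76%. The members' median log2 ratio was 0.24, beside 0.11 over all genes. Col4a1 stood at 405 and 514 CPM, Col4a2 at 420 and 431 CPM, and Col18a1 at 408 and 407 CPM. Serpinh1 stood at 208 and 201 CPM. These most counted members were within 1.5-fold. Col6a3, a beaded filament chain, stood at 84.0 and 116 CPM (log2 ratio 0.46, 0.03 to 0.90), Col3a1 at 66.0 and 93.2 CPM (0.50, 0.01 to 1.00) and Col1a2 at 73.2 and 63.4 CPM (-0.21, -0.73 to 0.31). Pcolce was lower at 92.4 and 40.7 CPM (log2 ratio -1.18, -1.75 to -0.63), and Lox at 69.6 and 34.4 CPM (-1.02, -1.65 to -0.40). Col1a1 was higher at 31.2 and 84.2 CPM (1.43, 0.79 to 2.12), on 26 and 93 UMIs, but as a mean over cells the log2 ratio was -0.29. The 33 PHDTiEC UMIs of Col6a1 came mostly from 1 cell, which held 54.5% of them.

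The prolyl 4-hydroxylases were little counted in pericyte-like cells. P4ha1 stood at 24 and 20.8 CPM (log2 ratio -0.21, -1.14 to 0.73) and P4ha2 at 16.8 and 19.9 CPM (0.24, -0.79 to 1.32), while Plod2 stood at 20.4 and 38.0 CPM (0.90, 0.05 to 1.80). As a mean over cells Plod2 stood at 0.257 and 0.324 UMIs per 10000, under 1.5-fold. The P4ha1 interval did not reach its endothelial ratio of 1.54, whereas the P4ha2 interval contained its endothelial ratio of 1.24. The 10 endothelial markers also summed higher in pericyte-like cells of PHDTiEC, at 132 and 411 CPM (7 of 8 with enough counts were higher), as did the 6 thick ascending limb markers, at 695 and 2017 CPM, while the 6 neutrophil markers summed to 831 and 14.5 CPM. The 9 fibroblast markers summed to 10.8 and 38.0 CPM (1 of 1 was higher), with Lum, Dpt, Clec3b, Mfap5 and Mfap4 at 0, the 6 collecting duct markers to 40.8 and 209 CPM and the 6 capillary markers to 24 and 123 CPM. The part of these in the pericyte ratios was not tested.

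Over all kept cells, Col1a1, Col1a2 and Col3a1 were among the members that were higher in PHDTiEC. Of 51 members, 14 were higher and 0 were lower, where all 17746 genes gave 3.54% and 3.58%. The members' median log2 ratio was 0.27, beside 0.03 over all genes. Of the 14, 13 were chains and 1 was an enzyme, P4ha3. Col1a1 (chr11:94936224-94953042, plus strand) stood at 83.5 and 147 CPM (log2 ratio 0.82, 0.78 to 0.85). Col1a2 (chr6:4504814-4541544, plus strand) stood at 96.8 and 186 CPM (log2 ratio 0.94, 0.91 to 0.97). Col3a1 (chr1:45311538-45349706, plus strand) stood at 74.4 and 120 CPM (log2 ratio 0.69, 0.65 to 0.73), which fell under 1.5-fold in 2 of 9 alternatives, to 0.45 with doublets removed and 0.55 as a mean over cells. The same 3 chains had log2 ratios of -0.13, 0.04 and -0.28 within fibroblast-like cells, so their levels over all cells and within these cells differed.

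The number of fibroblast-like cells differed between the libraries. They made up 1.87% (1.60 to 2.18) of kept cells in Cre- and 3.24% (2.89 to 3.62) in PHDTiEC, and 1.58% and 3.09% of the UMIs. Fibroblast-like cells held 78.6% and 84.7% of the UMIs of the summed fibrillar chains. That sum stood at 307 and 520 CPM (log2 ratio 0.76, 0.74 to 0.78). With each cluster's share of UMIs held at that of Cre-, the PHDTiEC sum was 307 CPM and the log2 ratio -9.5e-05. Removal of the highest doublet scores took out 8.13% and 17.2% of the fibroblast-like cells and left a log2 ratio of 0.56, under 1.5-fold. Without the fibroblast-like cells, the sums were 66.8 and 82.3 CPM (log2 ratio 0.30, 0.26 to 0.34). The share of a cell type among dissociated cells also depends on how many of its cells are released from the tissue, and with 1 mouse per genotype more such cells and better release cannot be told apart.

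Col12a1 was higher over all cells beyond the difference in cluster shares. It stood at 8.65 and 24.7 CPM (log2 ratio 1.51, 1.41 to 1.61), which was 0.85 with the shares held and 0.62 without the fibroblast-like cells. Col8a1, a short-chain collagen of vessel walls, stood at 7.05 and 13 CPM (0.89, 0.77 to 1.01), which was 0.31 with the shares held. Col15a1, at 21.1 and 33.7 CPM (0.68), and Col5a2, at 19 and 30.4 CPM (0.68), fell near 0 with the shares held, at -0.05 and 0.08. Col5a1, at 6.90 and 10.8 CPM (0.65), Col6a2, at 7.71 and 11.6 CPM (0.59), and Col16a1, at 3.85 and 6.08 CPM (0.66), became -0.04, 0.13 and 0.14. The Col6a2 ratio was at the 1.5-fold limit and fell under it in 8 of 9 alternatives. Those of Col15a1 and Col16a1 fell under it in 2 of 9, down to 0.45 and 0.50, and those of Col5a1 and Col5a2 in 1 of 9, to 0.49 and 0.52 with doublets removed. Col11a1 had 27 and 80 UMIs (1.40, 0.76 to 2.09) and P4ha3 had 44 and 98 UMIs (0.99, 0.46 to 1.54), which became 0.72 and 0.27. With the shares held, 4 members were past 1.5-fold, of which 3 were higher (Col11a1, Col12a1 and Col19a1) and 1 was lower (Col6a4), where all genes gave 2.9% and 3.65%.

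**Figure D5:**
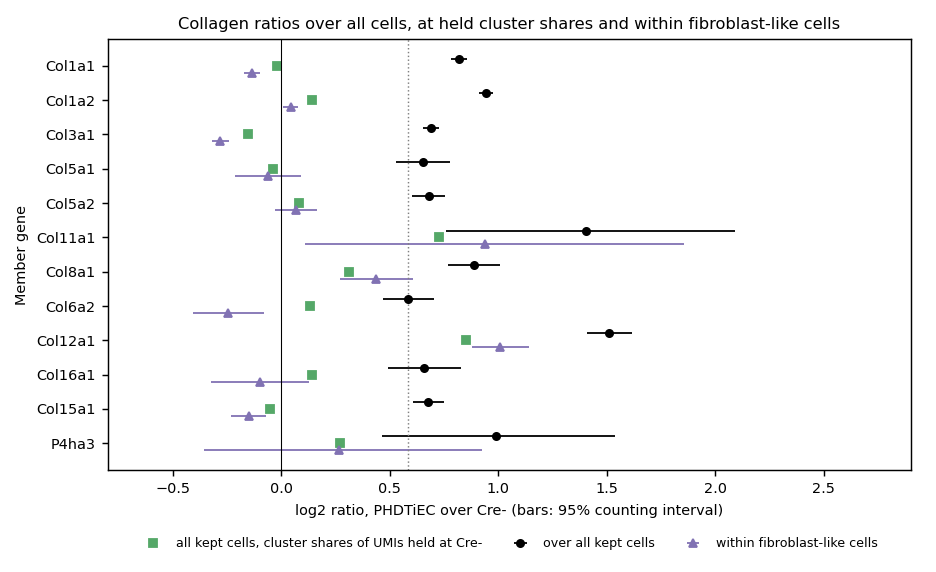
Log2 ratio, PHDTiEC over Cre-, of 12 collagen genes over all kept cells (black circles), over all kept cells with each cluster's share of UMIs held at that of Cre- (green squares) and within fibroblast-like cells (purple triangles); bars are 95% counting intervals and the dotted line marks 1.5-fold. Col1a1, Col1a2 and Col3a1 lie at 0.82, 0.94 and 0.69 over all cells and between -0.15 and 0.14 with the shares held, while Col12a1 stays at 0.85.

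Of the enzymes, those that were higher in endothelial-like cells differed little over all cells. P4ha1 stood at 25.9 and 30.1 CPM (log2 ratio 0.21), P4ha2 at 8.49 and 11.7 CPM (0.47), and Plod2 at 27.2 and 30.8 CPM (0.18). Plod1 stood at 20.1 and 23.1 CPM (0.20) and Loxl2 at 15.8 and 21.5 CPM (0.44). In macrophage-like cells, the largest class, P4ha1 stood at 45.6 and 44.2 CPM and Plod1 at 35.5 and 38.2 CPM, and the intervals of both ratios included 0. P4ha2 was higher there, on 15 and 36 UMIs (log2 ratio 1.03, 0.12 to 2.01).

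P4ha1 was also higher in dendritic-like cells, at 14.7 and 24.3 CPM (log2 ratio 0.73, 0.09 to 1.40), and lower in monocyte-like cells, at 67 and 41.2 CPM (-0.70, -1.28 to -0.15), where Plod1 was lower too, on 32 and 13 UMIs. P4ha2 was higher in cluster 13, at 14.9 and 25.2 CPM (0.75, 0.32 to 1.2). P4ha1 was higher as well in cluster 25, a cluster led by cycling genes, at 19 and 36.7 CPM (log2 ratio 0.95, 0.40 to 1.51), as was Plod2, at 73.6 and 133 CPM (0.86, 0.58 to 1.14). Of the 28 members with enough counts in cluster 25, 11 were higher and 2 were lower (Col27a1 and Pcolce). All genes gave 6.52% and 8.62%. Besides P4ha1 and Plod2, the higher members were Col1a1, Col3a1, Col4a2, Col4a3, Col4a6, Col8a1, Col16a1, Loxl1 and Loxl2. The members' median log2 ratio there was 0.46, beside -0.02 over all genes. In cluster 17, 4 of the 32 members with enough counts were higher (Col1a1, Col1a2, Col8a1 and Col12a1) and 1 was lower (Col27a1), where all genes gave 7.63% and 3.22%. There Col8a1 had 29 and 102 UMIs (1.61, 1.01 to 2.26) and Col1a1 stood at 83.7 and 145 CPM (0.79, 0.56 to 1.03), while Loxl1 stood at 322 and 302 CPM.

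Single cells held part of the Col1a1 counts of the tubule classes. In PT-like (proximal tubule) cells Col1a1 had 12 and 70 UMIs, of which 1 PHDTiEC cell held 74.3%. In CD-like (collecting duct) cells Col1a1 had 68 and 240 UMIs, of which 1 cell held 76.5% in Cre- and 27.5% in PHDTiEC. The top cell held 57.9% and 25.2% of 57 and 147 Col1a1 UMIs in TAL-like (thick ascending limb) cells, 37.9% and 46.1% of 29 and 115 in injured PT-like cells, and 75.5% and 37.8% of 53 and 45 in DCT-like (distal convoluted tubule) cells. Single cells also held large parts of the Col10a1 and Lox counts elsewhere: all 220 Col10a1 UMIs of CD-like cells in Cre- came from 1 cell, and Lox in macrophage-like cells had 394 and 56 UMIs, of which 1 Cre- cell held 48.2%. Lox was lower there with and without the top cell of each library (log2 ratio -3.05, and -2.58 without). The barcodes under 100 UMIs, which hold mainly free RNA, contained Col1a1, Col1a2 and Col3a1 at a summed 290 and 346 CPM, and free RNA in the tubule classes was not tested as a source of these counts.

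Other genes of collagen folding, secretion and assembly were taken from a list of 41 that holds no member. Of the 28 with enough counts in endothelial-like cells, 2 were higher (Colgalt2, which adds galactose to hydroxylysine, and Ccn2, a matricellular growth factor) and 2 were lower (Thbs1 and Ddr1), where all genes gave 5.48% and 7.56%. Colgalt2 had 23 and 49 UMIs, and its interval included no difference (log2 ratio 0.69, -0.06 to 1.47). Ccn2 stood at 25.5 and 68.2 CPM (1.42, 1.04 to 1.82). The median log2 ratio of the 28 was 0.13. P4hb, the shared partner subunit of the prolyl 4-hydroxylases, stood at 184 and 208 CPM (0.18, 0.02 to 0.34), so that it did not reach the ratios of P4ha1 and P4ha2. Sparc, a collagen-binding protein, stood at 1849 and 2731 CPM (0.56, 0.51 to 0.61).

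In fibroblast-like cells, 3 of 35 genes of this list were higher (Thbs1, Ccn2 and Itga2) and 1 was lower (Lum), where all genes gave 11.2% and 4.36%, with a median log2 ratio of -0.04. Itga2 had 7 and 25 UMIs, and its interval of -0.55 to 2.16 included no difference. Ccn2 stood at 251 and 654 CPM (1.38, 1.24 to 1.53). The fibronectin gene Fn1, at 855 and 932 CPM, and Postn, at 126 and 129 CPM, were within 1.5-fold. Over all kept cells, 9 of 41 were higher (Tll1, Adamts2, Adamts14, Postn, Bgn, Dcn, Thbs2, Ccn2 and Ddr2) and 0 were lower, where all genes gave 3.54% and 3.58%, with a median of 0.23, beside 0.27 for the members and 0.03 over all genes.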

How the data were processed

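Kidney cells of 1 Cre- and 1 PHDTiEC mouse were profiled with the 10x Genomics 3′ assay. The authors aligned reads to mm10 and counted UMIs with Cell Ranger (4, per the file headers), and the deposited values are raw UMI counts per gene for all barcodes, with no cell filter. Barcodes with 500 to 100000 UMIs, at least 200 genes and at most 50% mitochondrial counts were kept, with a median of 7500 (Cre-) and 7898 (PHDTiEC) UMIs per cell. Cells of both libraries were clustered together in Seurat 5.3.0 (R 4.3.3; 20 principal components, resolution 0.8) without the members among the variable genes, and clusters were named from marker lists only where these led. Doublets were left in the main analysis. UMIs were summed per class and library (Python 3.11.15, numpy 2.4.6, pandas 2.3.3, scipy 1.17.1), scaled to 1000000 and compared as ratios with 95% Clopper-Pearson intervals from the split of counts, and levels carry exact Poisson intervals. With 1 mouse per genotype no test was run and PCR or animal variation is outside the intervals. The ratios and intervals were also computed on simulated Poisson sums per class. That simulation held no single cells, clustering, doublets or spread between mice, so it cannot bear on these.

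The text gives in full the 8 members with the most UMIs in fibroblast-, pericyte- and endothelial-like cells, members past 1.5-fold with at least 100 UMIs there or over all cells, and the 14 enzymes and helpers in endothelial-like cells, and other members by counts or as examples chosen after their values were seen. The members, the marker lists and the list of 41 other collagen genes were chosen with earlier results of these data known. Alternatives covered cell filters, clustering, scaling (TMM of edgeR 4.0.16), free RNA, doublets (Scrublet in scanpy 1.11.5), fold and count minimum. Gene positions came from GENCODE vM21 (GRCm38, the sequence of mm10), and upstream windows from RefSeq (GRCm38.p6).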

Additional observations from a re-analysis of the deposited data

Results flagged for a closer look

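Col1a1 differed in direction between classes. Its log2 ratio, PHDTiEC over Cre-, was -2.65 in mREC-like cells and 1.43 in pericyte-like cells, and 1 Cre- cell held 91.4% of the mREC-like UMIs of Cre-. Both directions turned in an alternative: without the top cell of each library the mREC-like ratio was 0.49 (-1.74 to 3.11, on 3 and 6 UMIs), and as a mean over cells the pericyte-like ratio was -0.29. Col4a4, a type IV chain, also differed in direction, with a log2 ratio of 0.80 in mREC-like cells (10 and 25 UMIs, of which 1 PHDTiEC cell held 48%), -0.88 in cREC-like cells (55 and 34 UMIs) and 0.79 in pericyte-like cells (30 and 69 UMIs). Without the top cell of each library the mREC-like ratio of Col4a4 was 0.19 (-1.19 to 1.67) and the cREC-like ratio was -0.83 (-1.56 to -0.11). With 1 library per genotype these differences between classes were not tested.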

How the results depend on the processing

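The number of members past 1.5-fold in endothelial-like cells, 12, ranged from 8 to 16 over 19 alternatives. In fibroblast-like cells 7 members were past 1.5-fold, and 4 at 2-fold and 3 with a minimum of 100 UMIs. In pericyte-like cells 7 became 4 at 2-fold, 14 with a minimum of 10 UMIs and 2 with a minimum of 100 UMIs. Over all kept cells 14 became 9 with doublets removed, 4 with cluster shares of UMIs held and 3 at 2-fold. The log2 ratio of the summed fibrillar chains over all cells was 0.76. It was 0.74 both with a complexity of at least 0.8 and with a mitochondrial limit of 20%. It was 0.73 both with TMM scaling and without mitochondrial genes, 0.68 as a mean over cells and 0.56 with doublets removed. Without the cell with the most fibrillar UMIs in each library it was 0.79. It was -9.5e-05 with cluster shares held and 0.30 without the fibroblast-like cells. Of the ratios past 1.5-fold, directions were seen to turn for Col10a1 in fibroblast-like cells (-0.57, members kept among the variable genes) and Col1a1 in pericyte-like cells (-0.29, mean over cells). The direction of Col1a1 in mREC-like cells turned too (0.49, without the top cell of each library). The cause of these changes was not tested. Ratios not counted as higher or lower also crossed 0, among them Loxl1 (up to 0.84), Col15a1 (0.43), Pcolce2 (0.11) and Col18a1 (0.09) in endothelial-like cells. Of 643 alternative values of 52 member ratios, 588 stayed within the counting interval of the reported value. TMM scaling shifted all ratios by -0.12 in pericyte-like cells and by less than 0.1 elsewhere. Over 14 alternatives the endothelial log2 ratios ranged from 1.25 to 1.58 for P4ha1, 1.18 to 1.32 for P4ha2 and 1.32 to 1.81 for Plod2. Scrublet's own threshold marked 0 cells, so the highest-scoring 540 and 575 cells were removed instead. Joining cluster 23, taking each endothelial cluster alone, holding cluster shares, leaving out fibroblast-like cells and leaving out the top cell of the fibrillar chains or of single members in the endothelial clusters, macrophage-like cells and clusters 17 and 23 were chosen after seeing the data. No paired analysis was possible because each genotype had 1 library. Members under 30 UMIs in a class were not counted as higher or lower, whatever their interval.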
